A study of Mus musculus with 35 samples.

Results

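The change in long RNA between spermatocytes and round spermatids was measured in mice whose germ cells carry a conditional deletion in Smg6. The comparison took 3 libraries of round spermatids (RS) and 3 libraries of pachytene spermatocytes (Spc) from the conditional knockout (cKO), which are 6 of the 35 samples of the series. All polyadenylated-RNA libraries of these cell types from the cKO were members, and a gene row was tested where 3 or more of the 6 libraries held at least 10 counts. Of 24411 gene rows, 17709 passed that filter. The 6 matching libraries of control mice, 3 of RS and 3 of Spc, were used to see where the cKO stage change differed.

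The cKO mice were Smg6 fx/fx;Ngn3Cre+ on a mixed C57Bl/6J and SV129 background, with loxP sites around exon 9 of Smg6. Cre was driven by the Ngn3 promoter, which is active in spermatogonia soon after birth, before either cell type compared here forms. Control mice were littermates without Cre that carried 1 or 2 floxed alleles. All mice were adult, and cells were separated by size on a BSA gradient without a marker for sorting. The 2 cell types are therefore enriched fractions, and the testes they came from can differ in cell make-up between genotypes. In such bulk samples fewer cells of a type and less RNA per cell cannot be told apart.

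SMG6 is the endonuclease of nonsense-mediated mRNA decay (NMD), a pathway in which UPF1 marks transcripts that end translation early and recruits enzymes that degrade them. Pachytene spermatocytes are the long-lived meiotic cells in which homologous chromosomes are synapsed, the sex chromosomes are silenced and pachytene piRNAs are made. Round spermatids are their haploid descendants. They transcribe the genes of the acrosome, the flagellum and the condensed sperm nucleus, store many of these mRNAs for later translation, and gather RNA-binding proteins in the chromatoid body. A comparison of RS with Spc therefore reads the meiotic program being switched off and the haploid program being switched on.

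The libraries held 36419197 to 45827646 counts on genes in the cKO and 39838294 to 47355837 in the control. Smg6 (GRCm38, chr11:74925823-75164448, plus strand) stood at normalized counts of 8556, 8788 and 8664 in cKO Spc and 8541, 9458 and 8832 in cKO RS. Its total did not separate the cell types, the difference being 0.05 on the log2 scale (SE 0.07, adjusted p = 0.59, edgeR quasi-likelihood test). Scaled by library size alone it was 0.19, against a median of 0.16 over all genes at that scaling, and passed. A gene total covers all exons and does not check the deletion of exon 9. Normalized counts in the text are counts divided by each library's effective size and multiplied by the mean effective size of the libraries fitted together.

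Markers of the germ cell stages were summed on a scale shared by all 12 libraries. Of 6 spermatocyte markers, 4 were lower and 2 higher by adjusted p in cKO RS. Their sum was 30999 to 36429 in cKO Spc and 21786 to 22012 in cKO RS, a ratio of 0.666 that was close to the 0.678 of the control. The sum of 6 round spermatid markers was 25167, 28472 and 21219 in cKO Spc and 33038, 40922 and 35120 in cKO RS. That is a 1.46-fold step, against 3.1-fold in the control, where the sums were 26923 to 39819 in Spc and 97893 to 100886 in RS. The cKO RS libraries thus overlapped control Spc in these markers and lay below each control RS library. Of 9 late spermatid markers, such as Prm1 and Akap4, the sum was 44159, 60839 and 18421 in cKO Spc and 84520 to 87067 in cKO RS. Control Spc held 157170 to 322777 and control RS 1278270 to 1696484. Summed spermatocyte markers were thus lower in cKO RS as in control RS, while summed spermatid markers were higher than in cKO Spc without reaching the level of control RS.

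Markers of other testis cells moved with the comparison. The sum of 6 macrophage markers was 1449 to 1983 in cKO Spc and 5824 to 9163 in cKO RS, and in the control it was 1122 to 1675 and 880 to 1235. Erythroid markers, 5 in number, summed to 68.1 to 147 in cKO Spc and to 2915 to 10745 in cKO RS. The sum of 7 markers of Leydig cells, the steroid-producing cells between the tubules, was 25952 to 53245 in cKO Spc and 1436 to 14933 in cKO RS. For 7 markers of Sertoli cells, the somatic cells of the tubule, the sums overlapped, at 7686 to 11181 in cKO Spc and 3658 to 9989 in cKO RS. Spermatogonial markers also overlapped, at 2346 to 4182 and 2689 to 4057. The part of these cells in each result below was not tested, except where a value is given beside it.

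**Figure D1:**
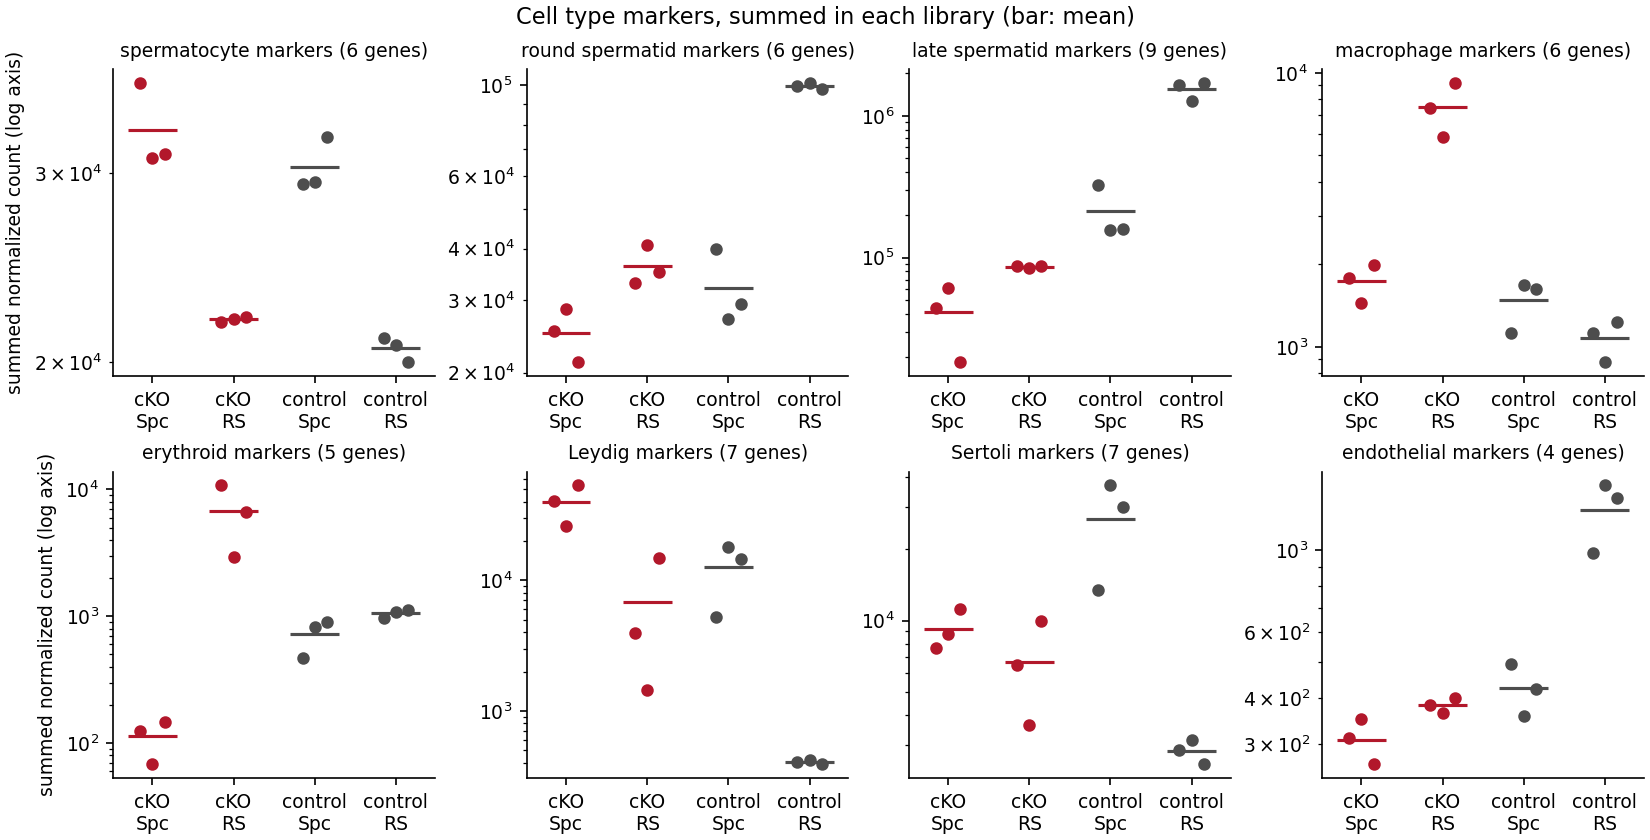
Summed normalized counts of cell type markers (vertical log axis) in cKO Spc, cKO RS, control Spc and control RS, with 1 point per library and a bar at the mean of 3. In cKO the round spermatid sum rose 1.46-fold from Spc to RS and the macrophage sum 4.31-fold, and in the control these ratios were 3.1 and 0.73.

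Fewer genes separated the cell types in the cKO than in the control. A gene was called when its log2 fold change was at least 1.5 in size and its adjusted p at most 0.05. In the cKO, 580 genes (3.28% of those tested) were called higher in RS and 672 (3.79%) lower. In the control, 2897 of 17046 genes (17.0%) were called higher and 2903 (17.0%) lower, which became 1132 and 4365 when scaled by library size alone. By adjusted p alone, 3355 genes (18.9%) were higher and 4685 (26.5%) lower in cKO RS, against 6169 (36.2%) and 6776 (39.8%) in control RS. The median size of the log2 fold change was 0.57 in the cKO and 1.02 in the control. Scaling by library size alone moved the median over all cKO genes from 0.02 to 0.16 and the calls to 740 higher and 482 lower, so the share of calls that were higher went from 46.3% to 60.6%. Without Spc 2 the count of genes called higher was 1183, of which 510 were among the 580.

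For 16738 genes tested in both genotypes, the log2 fold changes had the same sign in 75.1%, with a Spearman rho of 0.67 over genes, a description since genes do not vary independently. Of the 672 genes called lower in cKO RS, 527 (78.4%) were also called lower in control RS, and these were 18.4% of the control's lower calls that were also tested in the cKO. Of the 580 called higher, 180 (31.0%) were also called higher in the control, 6.56% of the control's higher calls tested in the cKO. A further 203 were too low in control libraries to be tested there. The difference between the stage changes was tested in a fit of all 12 libraries. It passed for 7837 of 18171 genes (43.1%), with a more positive cKO change in 3459 (19.0%) and a more negative one in 4378 (24.1%). These directions depended on the scaling. With library size alone the median interaction over all genes went from -0.13 to 0.58 on the log2 scale and the split became 8089 positive and 545 negative.

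Of the genes called higher in control RS, 2560 were tested in the cKO and called in neither direction there. Their cKO log2 fold changes had a median of 0.94 with quartiles of 0.77 and 1.09, and 2498 lay above 0. In the control their median was 1.87. A total of 1243 (48.6%) passed the adjusted p as higher in cKO RS, and 1212 had a significantly more negative change in the cKO than in the control. The 2312 genes called lower in control RS and in neither direction in the cKO had a cKO median of -0.53, with quartiles of -1.005 and 0.11, against -2.05 in the control. Of these, 949 passed as lower in the cKO and 1787 had a significantly more positive change there.

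**Figure D2:**
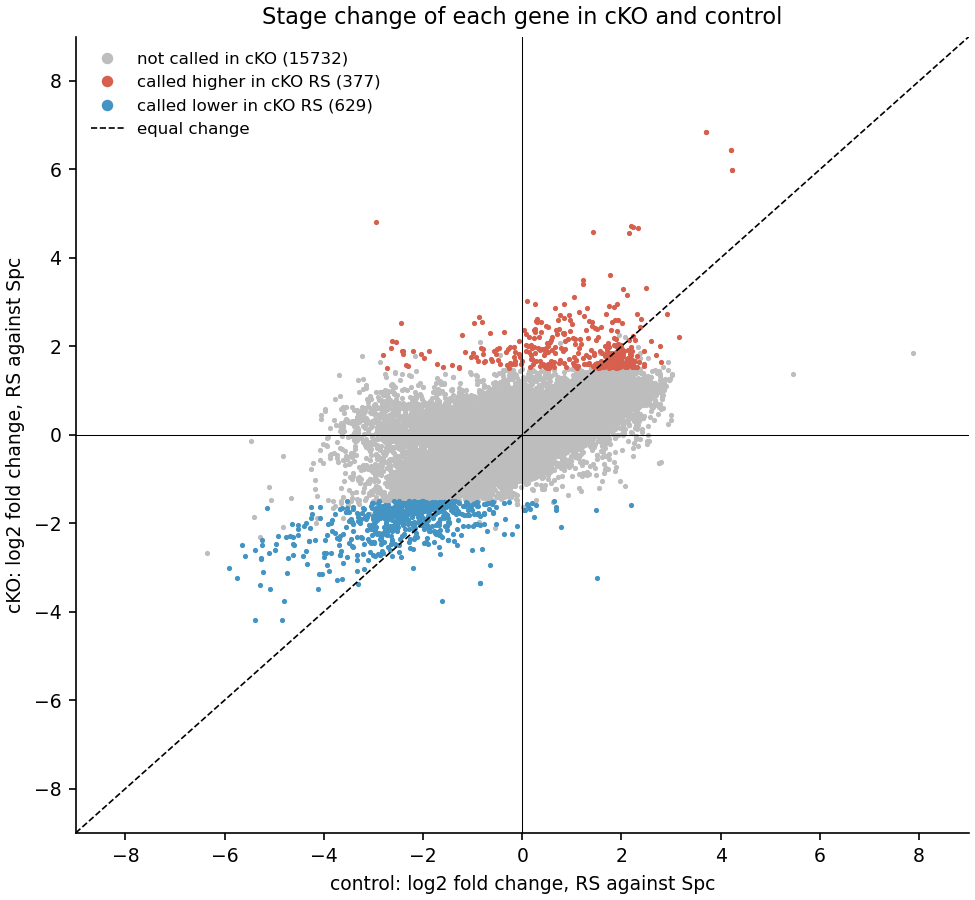
Log2 fold change of RS against Spc for each gene tested in both genotypes, control on the horizontal axis and cKO on the vertical axis, coloured by where the gene was called, with a dashed line of equal change. Genes called in the control and not in the cKO had a cKO median of 0.94 on the control's higher side and -0.53 on its lower side, where 674 of 2312 lay above 0 in the cKO.

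Genes of the meiotic chromosome axis were more often lower than higher in cKO RS. Of 14 genes of the synaptonemal complex and meiotic cohesin, 8 were lower and 3 higher by adjusted p, and none was called. Over all genes 26.5% were lower and 18.9% higher. Without Spc 1 the lower count was 5, and it was 6 with library size alone and without Spc 2, RS 1 or RS 3. In addition, 2 genes were called higher without Spc 2 and 1 without RS 1. The list's median log2 fold change was -0.35, against 0.02 over all genes tested. Sycp2, an axial element protein, was at 35971, 33806 and 32972 normalized counts in Spc and 18695, 18115 and 16943 in RS, with no overlap, and changed by -0.94 on the log2 scale (SE 0.07, adjusted p = 0.000135). Sycp3, its partner in the axis, changed by -1.04 (SE 0.11) and Sycp1, the transverse filament, by -0.83 (SE 0.11). Hormad1, which marks unsynapsed axes, was 6550 to 7883 in Spc and 2993 to 3264 in RS, a change of -1.17 (SE 0.10). Over all genes tested, 32.5% had all RS libraries below all Spc libraries and 26.2% had all above. The meiotic cohesin subunit Rec8 went the other way, from 1176, 1879 and 1067 to 2920, 4667 and 2741, a change of 1.33 (SE 0.27, adjusted p = 0.00666).

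Among 21 meiotic recombination genes, 10 were lower, 5 higher and 3 were called lower, with a median of -0.35 that was -0.17 without Spc 1, -0.23 without RS 3 and -0.21 with library size alone. Over all genes 26.5% were lower, 18.9% higher and 3.79% called lower. The count called lower was 1 with library size alone, without Spc 1 or without RS 3. In addition, 1 gene was called higher with library size alone and without Spc 2, RS 1 or RS 3. Spo11 (chr2:172977700-172993576), which makes the breaks that start recombination, was at 5223, 5653 and 5100 in Spc and 1932, 1885 and 1780 in RS. Its log2 fold change was -1.51 (SE 0.08, adjusted p = 0.000109) in the cKO and -0.91 in the control, and the difference of -0.71 passed the interaction test (adjusted p = 0.00181). With library size alone the interaction was positive for 12 of the 21 genes and negative for 0, so this negative difference did not pass at that scaling. Mcmdc2 and Spata22, both needed for repair of those breaks, were called lower at -1.91 (SE 0.29) and -1.62 (SE 0.20). Spo11 and Spata22 are close to the size needed for a call. Spo11 fell short of it with DESeq2, with library size alone and without Spc 1, Spc 2, RS 1 or RS 3, and Spata22 with library size alone and without Spc 1 or RS 3. Mlh3, a mismatch repair protein of crossovers, fell from 4009 to 4360 in Spc to 1500 to 1801 in RS, and the crossover helicase Hfm1 from 3566 to 5024 to 1457 to 1714.

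Other members of the recombination list were higher. Prdm9, the methyltransferase that places recombination hotspots, was at 93.0, 148 and 124 in Spc and 331, 452 and 206 in RS. Its change of 1.43 (SE 0.33, adjusted p = 0.00981) compared with 0.15 in the control, and the interaction passed at 1.17 (adjusted p = 0.0449). The strand exchange protein Dmc1 was 229, 282 and 254 in Spc and 615, 808 and 393 in RS, a change of 1.24 (SE 0.27, adjusted p = 0.00776) against 0.29 in the control. That interaction did not pass (0.85, adjusted p = 0.0882). Tex11 and Tex15, which act in recombination, changed by 1.11 and 1.09 and were also higher in the control. The summed spermatogonial markers overlapped between cKO Spc and cKO RS, as given above.

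Meiotic division genes were divided. Of 27 tested, 9 were higher and 10 lower by adjusted p, with a median of 0.12, where 18.9% of all genes were higher and 26.5% lower. With library size alone 13 were higher and the median was 0.265, and without RS 1 the median was 0.187. The count called higher was 1 with library size alone and without Spc 2, Spc 3 or RS 3. The count called lower was 1, near the 3.79% of all genes. This was Cks2, a subunit of cyclin-dependent kinase complexes, at 7064, 5368 and 5930 in Spc and 1275, 862 and 1265 in RS (log2 fold change -2.43, SE 0.18, adjusted p = 0.000148). Cdk1, the kinase itself, was 2080 to 2916 in Spc and 1019 to 1351 in RS, and the checkpoint kinase Bub1b was 6052 to 6346 and 2654 to 3160. Both sets of libraries were apart. The phosphatase Cdc25c changed by 1.12 (SE 0.12) and the X-linked cyclin Ccnb3 by 1.38 (SE 0.26) in the other direction.

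The piRNA pathway had the largest share of lower members among the germ cell lists of the cKO. piRNAs are small RNAs bound by PIWI proteins that guard the germline against transposons, and in pachytene spermatocytes they are cut from long precursors. Of 22 genes of this pathway and of the chromatoid body, 16 were lower (26.5% of all genes), 0 higher (18.9%) and 4 called lower (3.79%), with a median of -0.66 in the cKO and -0.87 in the control. With library size alone the cKO median was -0.51. Promoters of the 4 called genes are printed here because these genes fell together. They come from RefSeq for GRCm38.p6, at the start nearest that of the gene in GENCODE where several were listed, and run from 250 bases before to 50 bases after the annotated start, with capitals marking each match to AACNG, the core of the motif bound by MYB proteins, on either strand. Piwil1 (chr5:128735996-128736295, plus strand) held 4 matches, Pld6 (chr11:59787608-59787907, minus strand) 2, Tdrd1 (chr19:56825959-56826258, plus strand) 1 and Tdrd5 (chr1:156303299-156303598, minus strand) 2.
Piwil1: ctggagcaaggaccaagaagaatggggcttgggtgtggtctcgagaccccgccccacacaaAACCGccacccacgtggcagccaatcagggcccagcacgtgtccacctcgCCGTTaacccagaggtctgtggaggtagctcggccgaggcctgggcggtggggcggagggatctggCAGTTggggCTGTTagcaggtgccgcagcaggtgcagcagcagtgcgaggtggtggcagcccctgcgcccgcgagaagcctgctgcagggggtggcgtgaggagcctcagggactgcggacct
Pld6: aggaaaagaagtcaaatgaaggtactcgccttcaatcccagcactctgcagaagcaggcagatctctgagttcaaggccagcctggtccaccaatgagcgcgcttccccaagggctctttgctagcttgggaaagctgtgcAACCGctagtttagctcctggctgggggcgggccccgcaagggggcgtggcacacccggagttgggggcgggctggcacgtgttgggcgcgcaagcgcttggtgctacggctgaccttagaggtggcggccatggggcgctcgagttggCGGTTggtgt
Tdrd1: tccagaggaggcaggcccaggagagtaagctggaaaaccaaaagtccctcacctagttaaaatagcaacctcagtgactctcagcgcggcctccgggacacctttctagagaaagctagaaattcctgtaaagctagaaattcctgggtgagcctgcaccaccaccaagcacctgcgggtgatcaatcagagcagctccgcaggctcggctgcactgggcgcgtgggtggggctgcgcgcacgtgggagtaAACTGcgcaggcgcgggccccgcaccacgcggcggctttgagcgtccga
Tdrd5: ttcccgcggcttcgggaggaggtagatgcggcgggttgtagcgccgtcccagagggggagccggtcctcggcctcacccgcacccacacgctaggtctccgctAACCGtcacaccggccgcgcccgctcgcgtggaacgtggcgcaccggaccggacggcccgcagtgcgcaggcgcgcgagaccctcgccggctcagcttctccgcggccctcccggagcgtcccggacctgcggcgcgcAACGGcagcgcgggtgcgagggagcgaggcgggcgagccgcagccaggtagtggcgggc
These letters are common. They were found in 26377 of 32851 promoters (80.3%) and in 24 of 27 promoters (88.9%) of the 19 tested pathway genes that RefSeq listed, so a match is a description of the sequence and not a binding site.

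Piwil1, the main PIWI protein of pachytene spermatocytes, was at 51638, 56944 and 46051 normalized counts in cKO Spc and 10107, 5504 and 8008 in cKO RS. The groups were far apart, the change being -2.71 on the log2 scale (SE 0.21, adjusted p = 0.000172) in the cKO and -3.33 in the control. The interaction of 0.52 did not pass (adjusted p = 0.179). Tdrd5, a Tudor domain protein of precursor processing, was 14473, 12458 and 13897 in Spc and 2866, 2190 and 2860 in RS, a change of -2.37 (SE 0.12, adjusted p = 0.000109). Here the control change of -3.45 was larger, and the interaction of 0.98 passed (adjusted p = 0.00634).

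Tdrd1, a scaffold of PIWI proteins, went from 16941 to 20076 in Spc to 2654 to 4991 in RS, a change of -2.22 (SE 0.21). Pld6, the mitochondrial nuclease of precursor processing, went from 5029 to 6037 to 1090 to 1380, a change of -2.14 (SE 0.12). Neither passed the interaction test (adjusted p = 0.198 and 0.574). Piwil2, the second PIWI protein of the adult testis, reached -1.49 (SE 0.17), just under the size needed for a call. The chromatoid body protein Tdrd9 changed by -0.68 and its relative Tdrd12 by -1.26. Mybl1, the MYB protein known to drive pachytene piRNA genes, was 5207 to 5369 in Spc and 3200 to 3378 in RS, a change of -0.69 (SE 0.07, adjusted p = 0.000349) against -1.38 in the control, and the interaction of 0.58 passed (adjusted p = 0.00155).

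**Figure D3:**
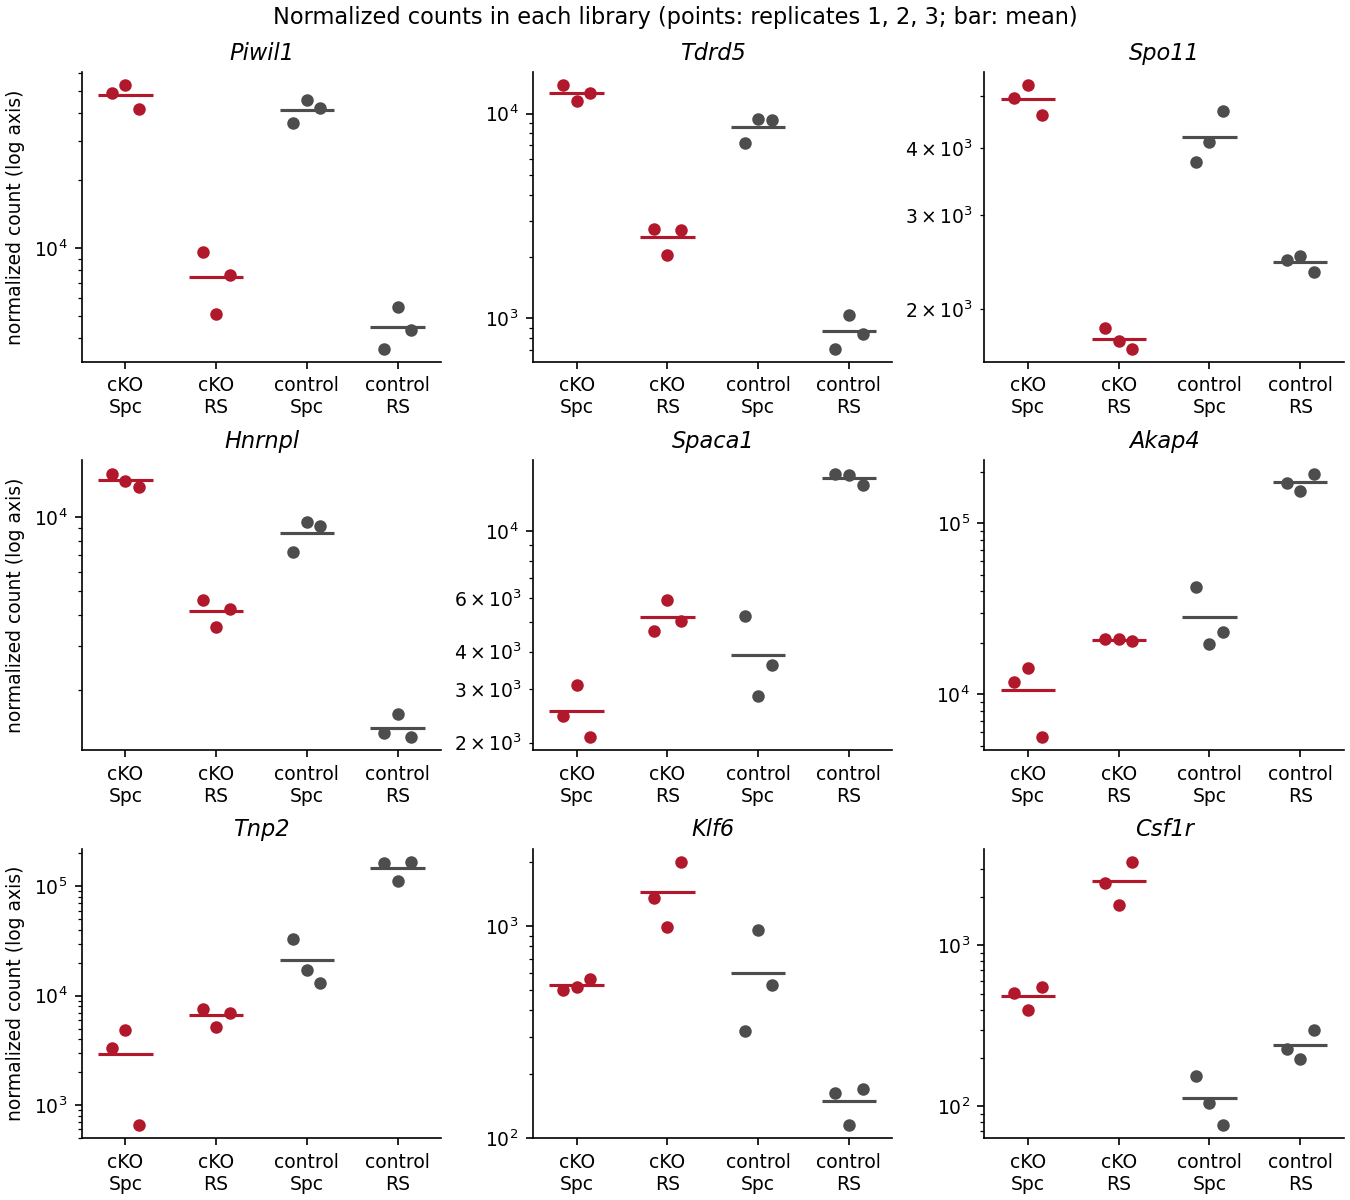
Normalized counts (vertical log axis, scale shared by 12 libraries) of 9 genes in cKO Spc, cKO RS, control Spc and control RS, with 1 point per library and a bar at the mean. Piwil1, Tdrd5, Spo11 and Hnrnpl fall in both genotypes, Spaca1 and Akap4 rise less in cKO than in control, Tnp2 is spread in cKO Spc, and Klf6 rises in cKO while it falls in control.

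Many genes of sperm structures were higher in cKO RS, with smaller median steps than in the control. In the tail sheath and outer dense fibers, 12 of 15 genes were higher by adjusted p and none was lower or called, with a median of 0.87 in the cKO and 1.96 in the control. The count that passed fell to 5 without Spc 1, 6 without RS 1 and 4 without RS 2, and 2 genes passed as lower without RS 2 and 1 without Spc 3. Of 18 acrosome genes, 9 were higher, 1 was lower and none was called, with medians of 0.50 and 1.79. Of 10 testis serine kinases (Tssk and relatives), 5 were higher, 1 was lower and 1 was called lower, with medians of 0.96 and 2.02. The higher kinases numbered 2 without Spc 1 or RS 2, 3 without RS 1 and 8 without Spc 2, where 2 were called higher. The background share of genes that passed as higher was 18.9%.

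The difference from the control was tested for each of these genes. A significantly more negative change in the cKO than in the control was found for 15 of 15 tail sheath genes, 15 of 18 acrosome genes and 8 of 10 kinases, where 24.1% of all genes had one. Leaving out 1 cKO library took the acrosome count to 8 (without Spc 2, RS 1 or RS 3) and the kinase count to 5 (without Spc 1, Spc 2 or RS 1) or 4 (without RS 3), and the tail sheath count to no less than 12. With library size alone the counts were 3, 1 and 0 for tail sheath, acrosome and kinases. The list medians of the interaction were then -0.62 for the tail sheath, -0.23 for the acrosome and -0.55 for the kinases, each below the median of 0.58 over all genes at that scaling.

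Akap4, the main anchoring protein of the fibrous sheath (chrX:7067519-7078609), was at 12361, 15409 and 6227 in cKO Spc and 22154, 22639 and 21522 in cKO RS. All RS libraries were above all Spc libraries, and Spc 3 was the lowest. Its log2 fold change was 0.96 (SE 0.28, adjusted p = 0.026) in the cKO and 2.48 in the control, with an interaction of -1.64 (adjusted p = 0.0135). In the cKO it did not pass the adjusted p without Spc 1, without RS 1 or without RS 2. On the scale of 12 libraries, Akap4 was 20421 to 21168 in cKO RS, 19793 to 42182 in control Spc and 154019 to 195266 in control RS, so the knockout spermatid fraction overlapped control spermatocytes.

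Odf1, an outer dense fiber protein, was at 4193, 6014 and 2354 in Spc and 7557, 9705 and 7774 in RS. The groups did not overlap, and the change of 1.00 (SE 0.30, adjusted p = 0.0292) also failed the test without Spc 1, RS 1 or RS 2. Akap3, a further sheath anchor, and Cabyr, a calcium-binding sheath protein, changed by 1.00 (SE 0.21) and 0.98 (SE 0.21). Fscb, a partner of Cabyr, changed by 0.87 against 2.2 in the control. Tekt4, a tektin of the flagellum, rose from 7544 to 10219 in Spc to 14222 to 15987 in RS, a change of 0.75 (SE 0.12).

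In the acrosome, Spaca1 (chr4:34024874-34050191), a membrane protein needed for its shape, was at 2592, 3361 and 2311 in Spc and 4916, 6407 and 5344 in RS. The change of 1.01 (SE 0.16, adjusted p = 0.0021) compared with 1.81 in the control (interaction -0.91, adjusted p = 0.0228). Acrv1, a protein of the acrosomal matrix, was 3089, 4091 and 2253 in Spc and 5353, 7505 and 5453 in RS, a change of 0.96 against 1.88. Spink2, an inhibitor of acrosin, was the member that fell, from 16508 to 18211 to 12213 to 13209, a change of -0.44 (SE 0.07, adjusted p = 0.0017). In the control it was level at 0.07 (adjusted p = 0.468).

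Among the kinases, Tssk1 went from 3149 to 5208 in Spc to 7010 to 8737 in RS, a change of 0.86 (SE 0.18) against 1.92, and Tssk4 changed by 0.99 (SE 0.15) against 1.84. Tssk6, needed for nuclear condensation, was 399, 671 and 107 in Spc and 789, 783 and 725 in RS. Its change of 0.97 (SE 0.53) did not pass (adjusted p = 0.17), although the groups were apart, and it passed without Spc 2 at 1.68. Stk31, a kinase-like Tudor protein of spermatocytes, was called lower at -1.75 (SE 0.14), from 6896 to 8663 to 1978 to 2585.

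**Figure D4:**
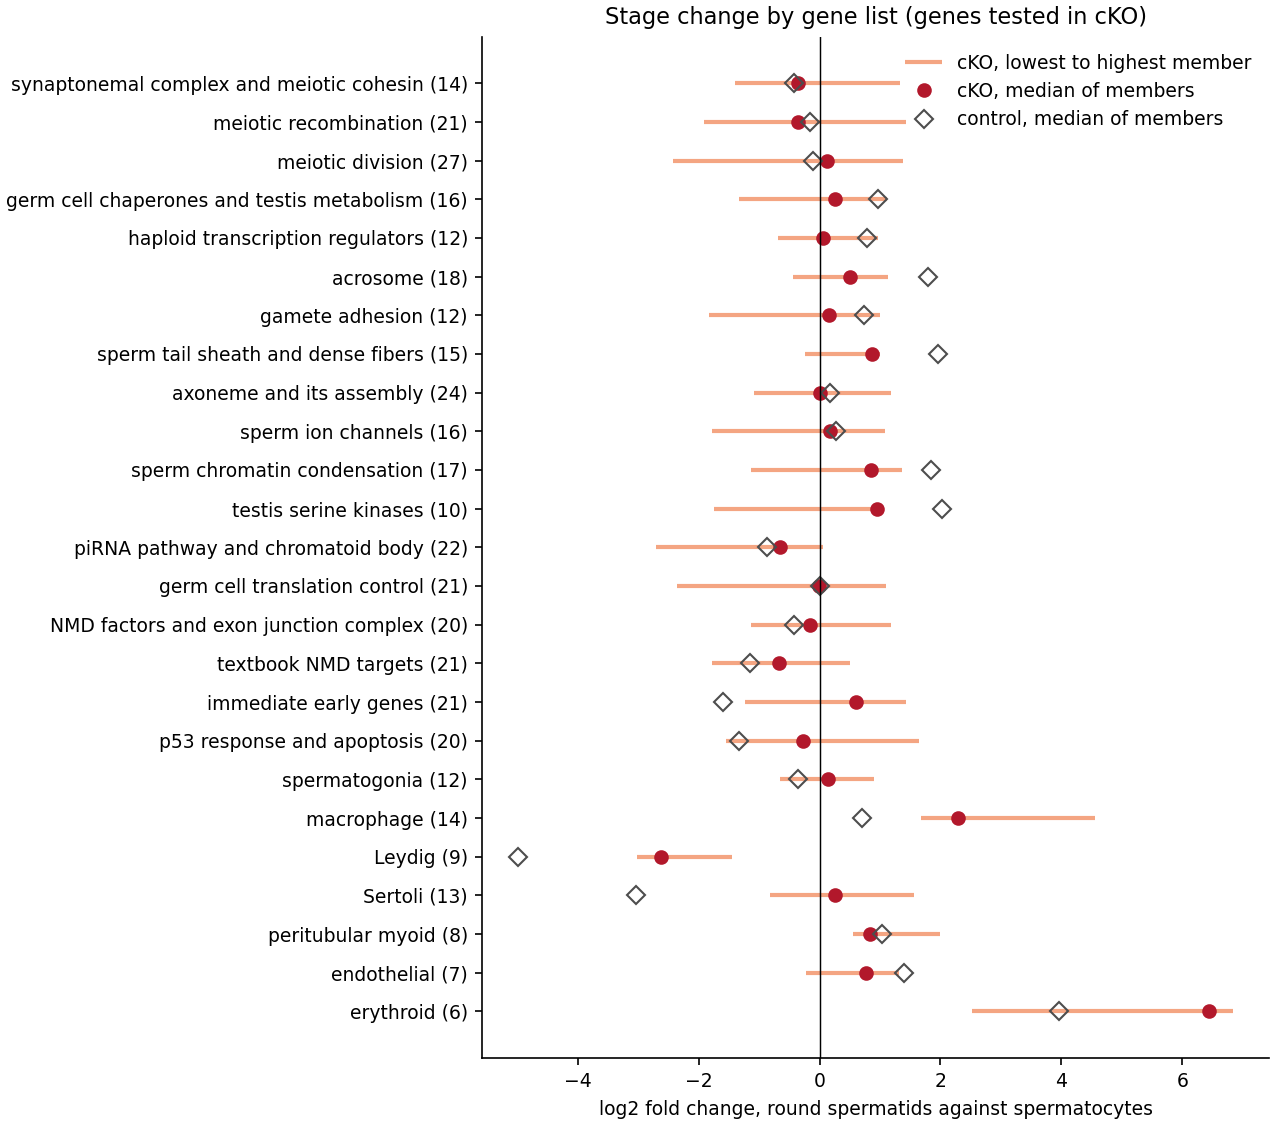
Log2 fold change of RS against Spc by gene list, with the number of genes tested in brackets. A filled circle is the cKO median, the line runs from the lowest to the highest cKO member, and an open diamond is the control median. The haploid lists (acrosome 0.50, tail sheath 0.87, chromatin condensation 0.85, kinases 0.96) lie left of the control in cKO, and the immediate early genes lie at 0.60 in cKO and -1.60 in control.

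Sperm chromatin genes were spread widely among the Spc libraries. Among them are the genes of the transition proteins and protamines that replace histones as the nucleus condenses. Of 17, 3 were higher and 6 lower, shares near the 18.9% and 26.5% of all genes, and none was called, with a median of 0.85 in the cKO and 1.85 in the control. Tnp2 (chr16:10787936-10788660), a transition protein, was 3512, 5215 and 727 in Spc and 7983, 5611 and 7342 in RS, with all RS libraries above all Spc libraries and Spc 3 far below the other Spc libraries. The change of 1.15 (SE 0.58) did not pass (adjusted p = 0.137). Prm1, a protamine, was 2394, 2984 and 412 in Spc and 5719, 3182 and 6000 in RS (1.37, SE 0.61, adjusted p = 0.104). Tnp1 and Prm2 gave 1.16 (adjusted p = 0.114) and 1.26 (adjusted p = 0.119), and all 4 lay between 2.67 and 2.97 in the control.

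The result turned on single libraries. The count of genes that passed as higher went from 3 to 0 without Spc 1, RS 1 or RS 2, to 1 without RS 3, to 8 without Spc 2 and to 6 without Spc 3. The lower count went from 6 to 3 without Spc 1, Spc 2 or RS 1 and with library size alone. Without Spc 2, Tnp1 was at 1.76, Tnp2 at 1.80 and Prm2 at 1.90, each past the adjusted p, and 6 genes of the list were called higher. Without Spc 3 the log2 fold changes were smaller, 0.70 for Tnp1, 0.67 for Tnp2, 0.88 for Prm1 and 0.79 for Prm2, and these also passed. Interactions of the 4 genes, from -1.54 to -1.83, did not pass (adjusted p from 0.0749 to 0.137). On the shared scale Tnp2 was 658 to 4835 in cKO Spc, 5189 to 7627 in cKO RS, 12985 to 33165 in control Spc and 111868 to 167650 in control RS. The histone variant gene H3f3b fell in the cKO from 19721 to 24921 to 11562 to 11831, a change of -0.95 (SE 0.09).

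Further lists of sperm structure and function were mixed. For comparison, 18.9% of all genes were higher, 26.5% lower and 3.79% called lower. Of 24 axoneme genes, 4 were higher and 8 lower, shares near those of all genes, with a median of 0.01. Scaled by library size alone these were 11 and 5, without RS 1 they were 9 and 5, and without Spc 1 the lower count was 5. Rsph1, a radial spoke protein, went from 65378 to 73283 in Spc to 31211 to 35384 in RS, a change of -1.08 (SE 0.07), close to the control's -0.94. Spag6l, a central pair protein, rose from 2891 to 3312 to 6574 to 7842, a change of 1.18 (SE 0.10). Of 16 ion channel genes, 7 were higher (3 without Spc 1) and 6 lower, with a median of 0.18. Catsper1, the pore of the sperm calcium channel, changed by 1.08 (SE 0.25), and Gm16432, the gene model of its auxiliary subunit CATSPERE2, was called lower at -1.77 (SE 0.13). Of 12 gamete adhesion genes, 5 were higher and 3 lower, and the 5 became 2 without Spc 1, Spc 3 or RS 2. Izumo1, the sperm protein that binds the egg, was 1829, 2782 and 1637 in Spc and 3929, 5325 and 3838 in RS (1.07, SE 0.22), while Tex101, a surface protein of spermatocytes, was called lower at -1.83 (SE 0.16).

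Genes listed as regulators of the haploid program went both ways. Of 12 genes, 3 were higher, 3 lower and none was called, beside 18.9% and 26.5% of all genes, with a median of 0.05 in the cKO and 0.78 in the control. A significantly more negative change in the cKO than in the control was found for 8, beside 24.1% of all genes. The lowest member, at -0.69, was Mybl1, the driver of pachytene piRNA genes given above, so the list is not of haploid regulators alone. Crem, the activator of postmeiotic genes, was at 8419, 7600 and 7358 in Spc and 8383, 9577 and 8349 in RS, so the groups overlapped (0.17, SE 0.09, adjusted p = 0.137). In the control it changed by 1.02, and the interaction was -0.96 (adjusted p = 0.000931). Sox30, a further activator of haploid genes, was 5568 to 6160 in Spc and 5720 to 6693 in RS, a change of 0.11 against 1.24 in the control (interaction -1.25, adjusted p = 0.00032). With library size alone Crem (0.31) and Sox30 (0.25) passed as higher, 5 of the 12 did in all, and 2 had a significantly more negative change in the cKO. Spz1 and Sox5, testis transcription factors, were higher at 0.97 (SE 0.22) and 0.82 (SE 0.15), as was Taf7l, a germ cell subunit of TFIID, at 0.94 (SE 0.15).

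Germ cell isoforms of metabolic enzymes and chaperones were split as well. Of 16, 5 were higher and 6 lower, where 18.9% of all genes were higher and 26.5% lower. The higher count was 2 without Spc 1, 3 without RS 2 and 8 without Spc 2, where 2 were called higher. The median was 0.25 against 0.96 in the control, and 14 had a significantly more negative change in the cKO, beside 24.1% of all genes (3 with library size alone). Pgk2, the germ cell phosphoglycerate kinase, was 15927, 14552 and 14108 in Spc and 19048, 20487 and 20221 in RS, a change of 0.42 (SE 0.07) against 1.82, with an interaction of -1.52 (adjusted p = 0.000485). Pdha2, the testis form of pyruvate dehydrogenase, fell by 1.33 on the log2 scale (SE 0.12) in the cKO and by 0.24 in the control. Ldhc, the germ cell lactate dehydrogenase, changed by -0.42 (SE 0.08) in the cKO and 0.23 in the control, and the chaperone gene Hsp90aa1 by -0.61 and -0.27.

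Genes that control stored mRNA in germ cells had a median of -0.003 in the cKO and 0.006 in the control, and that of the cKO was 0.14 with library size alone. Of 21, 4 were higher, 8 lower and 1 was called, and 7 were higher with library size alone or without RS 1. Over all genes 18.9% were higher, 26.5% lower and 3.79% called lower. The called gene was Adad2, an RNA-binding protein of spermatocytes, at 3976, 3692 and 3269 in Spc and 1071, 408 and 650 in RS (-2.36, SE 0.32, adjusted p = 0.00111), with a similar -2.47 in the control. Ybx2, which packages stored mRNAs, was 93753 to 106198 in Spc and 59858 to 66835 in RS, a change of -0.63 (SE 0.07) in the cKO and 0.21 in the control (interaction -0.94, adjusted p = 0.0002). Its relative Ybx3 behaved alike, at -0.53 and 0.15. Nxf3, an X-linked RNA export factor gene, was 200, 426 and 564 in Spc and 596, 354 and 584 in RS, with overlapping groups (0.36, adjusted p = 0.446), but it fell by 3.33 on the log2 scale in the control (interaction 3.60, adjusted p = 0.000842).

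Genes of the NMD machinery went both ways in cKO RS. Of 20 NMD factors and exon junction complex genes, 3 were higher, 9 lower and none was called, with a median of -0.16 in the cKO and -0.42 in the control. Over all genes 18.9% were higher and 26.5% lower. With 6 lower, the median was -0.014 by library size alone, -0.064 without Spc 1 and -0.09 without RS 1. Upf1, the central helicase, was 15875, 16537 and 15216 in Spc and 9994, 8722 and 9268 in RS. The change of -0.77 (SE 0.07, adjusted p = 0.000309) was smaller than the control's -2.21, with an interaction of 1.34 (adjusted p = 0.000431). Casc3 and Rnps1, of the exon junction complex and its periphery, fell in the cKO by 1.13 and 1.10 on the log2 scale, and by 2.02 for both in the control. Upf2 and the X-linked Upf3b were higher, at 0.58 (SE 0.09) and 1.19 (SE 0.16). Nbas, an NMD factor of the endoplasmic reticulum, did not pass at -0.16 (adjusted p = 0.0805).

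Many known targets of NMD were lower in RS also in the cKO. Of 21 textbook targets, 13 were lower (26.5% of all genes), 0 higher (18.9%) and 3 called lower (3.79%), or 1 without Spc 1, with a median of -0.67 in the cKO and -1.14 in the control. Hnrnpl (chr7:28808541-28822266), a splicing regulator, was 15749, 15080 and 14622 in Spc and 4842, 3903 and 4457 in RS (-1.78, SE 0.09, adjusted p = 0.000109). The control change was -2.74 and the interaction 0.86 (adjusted p = 0.00376). Ptbp2, a splicing repressor of germ cells and neurons, was called at -1.54 (SE 0.12), but not with library size alone or without Spc 1 or RS 2. Its interaction of 0.29 did not pass (adjusted p = 0.197). Gm11974, the gene model of the noncoding host gene Snhg15, was 203 to 293 in Spc and 58.2 to 88.4 in RS, a change of -1.71 (SE 0.26), short of a call without Spc 1. The splicing factor genes Srsf2 and Srsf3 fell by 1.00 and 0.96 on the log2 scale, and Atf4, a stress transcription factor, by 0.85.

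Some targets had a stage change in the control that was absent or small in the cKO. Gadd45b, a growth arrest gene, was 180 to 193 in Spc and 226 to 255 in RS (0.38, adjusted p = 0.11, and 0.52 and past the test with library size alone) and fell by 1.83 on the log2 scale in the control (interaction 2.10, adjusted p = 0.00681). Snhg12, a snoRNA host gene, changed by -0.62 in the cKO and -2.77 in the control (interaction 2.04, adjusted p = 0.000351). In all, the interaction was positive for 6 and negative for 4 of the 21 genes of the list, beside 19.0% and 24.1% of all genes. Scaled by library size alone it was positive for 14 and negative for 1, and 2 were negative without Spc 1, Spc 2, RS 1 or RS 3.

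Fos, Lpxn and Fkbpl are genes that the study names for its germ cell RNA. Fos, a stress-inducible transcription factor, was at 3779, 2831 and 4924 in Spc and 3965, 2622 and 8563 in RS, with overlapping groups and a change of 0.39 (SE 0.41, adjusted p = 0.449). Its sign turned without RS 3, to -0.22. In the control it fell by 1.87 on the log2 scale, and the interaction of 2.16 passed (adjusted p = 0.0176). Lpxn, an adaptor of focal adhesions, was 6755 to 7817 in Spc and 6784 to 7317 in RS (-0.05, adjusted p = 0.646) and fell by 1.77 in the control (interaction 1.62, adjusted p = 0.000204). Its sign in the cKO turned to 0.10 with library size alone. Fkbpl, an FKBP-like protein gene, was 3009 to 3687 in Spc and 3507 to 4167 in RS (0.16, adjusted p = 0.267, and 0.30 and past the test with library size alone) and rose by 1.16 in the control (interaction -1.12, adjusted p = 0.00111).

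Immediate early genes, which respond within minutes to stress or growth signals, had medians of opposite sign in the genotypes, as did the lists of Sertoli, spermatogonial and meiotic division genes. Of 21, 7 were higher, 0 lower and none called, with a median of 0.60 in the cKO and -1.60 in the control. Over all genes 18.9% were higher and 26.5% lower. Without RS 3 the cKO median was 0.23 and 1 gene was called lower. The higher count was 4 without Spc 1 or RS 3. None was called in the main comparison, but 2 were with library size alone and without Spc 2, Spc 3, RS 1 or RS 2. The interaction was positive for 14 and negative for 3, where 19.0% and 24.1% of all genes were. Klf6 (chr13:5861482-5870394), a zinc finger factor, was at 526, 556 and 622 in Spc and 1419, 1071 and 2111 in RS. That was a change of 1.43 (SE 0.24, adjusted p = 0.00271) against -2.13 in the control, and the interaction was 3.47 (adjusted p = 0.000737). Atf3, a stress factor, was 343, 474 and 563 in Spc and 1053, 1111 and 1539 in RS (1.42, SE 0.23), with -1.06 in the control (interaction 2.39, adjusted p = 0.0101).

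Other members rose in both genotypes. Klf4, a zinc finger factor of spermatids, went from 4090 to 5244 to 8782 to 10412 (1.13, SE 0.12, and 1.66 in the control), and Nr4a1, a nuclear receptor, changed by 0.97 (SE 0.14) and 1.86. Jun did not pass in the cKO (0.16, adjusted p = 0.652), its sign turned to -0.19 without RS 3, and it fell by 2.53 on the log2 scale in the control. Macrophages also transcribe genes of this list, and the macrophage sum rose 4.31-fold in the same libraries of the cKO. The part of macrophages in these values was not tested.

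Genes of the p53 response and apoptosis had a median of -0.28 in the cKO and -1.33 in the control, with 3 of 20 higher and 4 lower (2 lower without Spc 1), where 18.9% of all genes were higher and 26.5% lower. Bbc3, which codes for the death protein PUMA, was called higher, at 37.2, 52.0 and 52.7 in Spc and 188, 150 and 110 in RS (1.65, SE 0.30, adjusted p = 0.00379), with 1.64 in the control. Pmaip1, which codes for NOXA, was called lower, from 495 to 520 in Spc to 149 to 199 in RS (-1.55, SE 0.17), with -1.998 in the control. That call was lost by size with library size alone, without Spc 2 and without RS 2. Sesn2, a sestrin of the stress response, rose by 0.47 (SE 0.12) and fell by 1.63 in the control on the log2 scale (interaction 2.00, adjusted p = 0.000557). Trp53inp1, a p53-induced nuclear protein, changed by -0.97 and -2.24.

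Many genes of the sex chromosomes were higher in cKO RS. Meiotic silencing keeps the X and Y silent in pachytene, and a subset of their genes returns in spermatids. Of 785 X-linked genes, 356 (45.4%) were higher and 6 lower by adjusted p, where 18.9% of all genes were higher and 26.5% lower. Called higher were 53 (6.75%) and called lower 4, where 3.28% and 3.79% of all genes were. The median was 0.82 with quartiles of 0.46 and 1.04, and the control's was 0.79. The medians were close, but in the control 266 X-linked genes were called higher and 146 lower, where 17.0% of all genes were called each way. The interaction was positive for 216 and negative for 159, where 19.0% and 24.1% of all genes were. The X chromosome held 0.481, 0.487 and 0.57% of gene counts in cKO Spc and 1.05, 0.902 and 1.01% in cKO RS, so the shares did not overlap. The 16705 autosomal genes had a median of -0.02, and single autosomes ranged from -0.11 to 0.05.

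Of 36 Y-linked genes, 28 were higher by adjusted p, where 18.9% of all genes were, and none was called. Their median was 0.97 with quartiles of 0.85 and 1.05. In the control the median was 1.74 and 28 were called. The Y held 0.0194 to 0.025% of counts in cKO Spc and 0.0441 to 0.0503% in cKO RS. Reads of ampliconic X and Y families cannot be assigned to single copies with certainty. The highest X-linked genes with at least 200 normalized counts were Cybb, Platr21 and Bgn. Cybb, an oxidase of phagocytes, was 48.0 to 72.4 in Spc and 292 to 482 in RS (2.79, SE 0.28), beside the rise in macrophage markers. Platr21, a noncoding RNA, rose by 1.93 (SE 0.38) and by 2.02 in the control. Bgn, a matrix proteoglycan, changed by 1.76 (SE 0.44), short of a call without RS 3. The lowest were Apln, Efnb1 and Tmem164, at -2.18, -1.68 and -1.54, with adjusted p of 0.0344, 0.0386 and 0.0318. Each lost its call without Spc 1, without Spc 3 or without RS 1, and Efnb1 and Tmem164 also without RS 2. Efnb1 and Tmem164 lost it with library size alone.

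**Figure D5:**
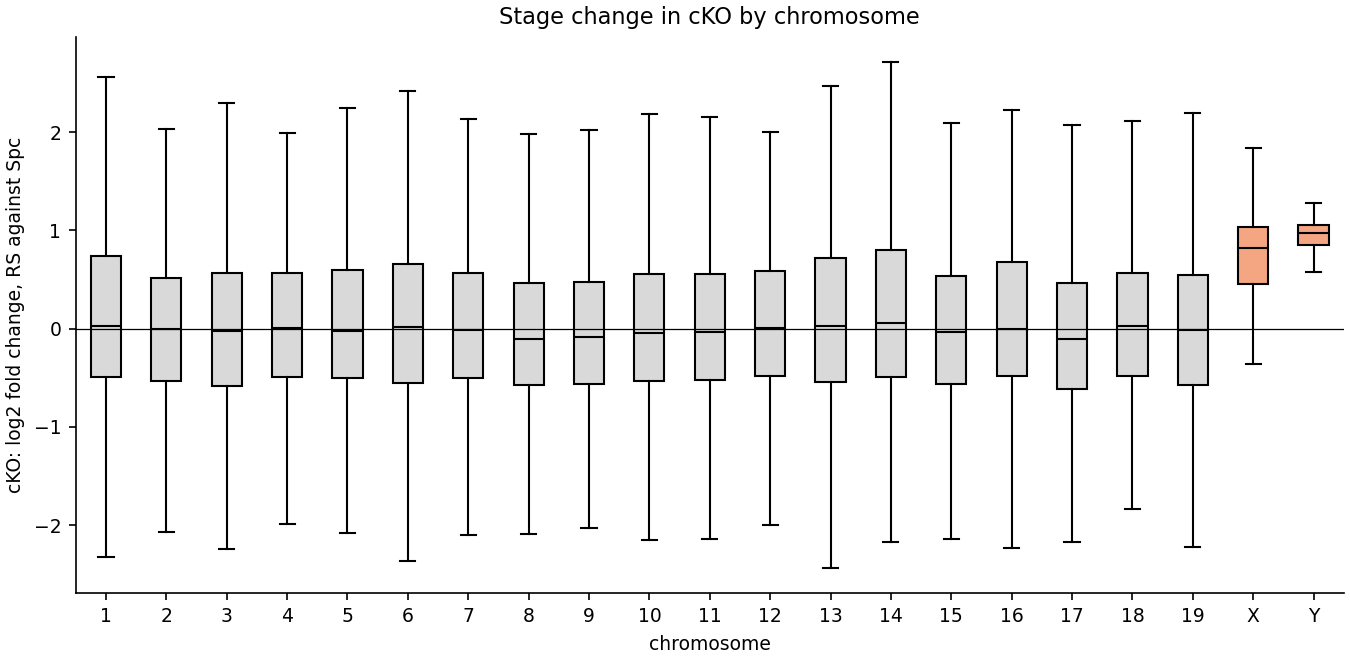
Log2 fold change of cKO RS against cKO Spc by chromosome. Boxes show the quartiles with the median as a line, and genes beyond the whiskers are left out. The X lies at a median of 0.82 and the Y at 0.97, and the medians of the autosomes lie between -0.11 and 0.05.

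The largest increases in cKO RS were in genes of blood and immune cells. Among genes with at least 200 normalized counts and no overlap, the globin genes led. Hbb-bs and Hbb-b1 held identical counts, as did Hba-a1 and Hba-a2, so reads of the copies were not separated and each pair is 1 measurement. The beta-globin pair was at 32.2, 8.16 and 31.1 in Spc and 4556, 1008 and 2580 in RS, a difference of 6.84 on the log2 scale (SE 0.71, adjusted p = 0.000422). The alpha-globin pair changed by 6.45 (SE 0.61). In the control these were 3.71 and 4.2. All 6 erythroid genes tested were called higher, where 3.28% of all genes were. Alas2, the erythroid enzyme of haem synthesis, rose by 2.52 (SE 0.54) in the cKO and fell by 2.44 in the control on the log2 scale.

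Class II antigen presentation followed. H2-Aa was 118, 75.5 and 73.4 in Spc and 980, 2041 and 3898 in RS (4.71, SE 0.53, adjusted p = 0.000564). H2-Eb1, H2-Ab1 and Cd74, the invariant chain, changed by 4.68, 3.49 and 4.56, and their interactions with genotype of 2.14 to 2.29 passed. All 14 macrophage genes tested were called higher, where 3.28% of all genes were, at a median of 2.29 against 0.71 in the control. Csf1r, the receptor for the macrophage growth factor, was at 532, 428 and 610 in Spc and 2552, 1939 and 3487 in RS (2.35, SE 0.24). Adgre1, the F4/80 antigen, changed by 1.68 in the cKO and 1.60 in the control. Coro1a and Hmha1, genes of leukocytes, and Adamts5 and Col15a1, genes of extracellular matrix, were the remaining increases of this size, at 3.02, 2.87, 2.96 and 2.90.

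Leydig cell and kallikrein genes were among the largest decreases. Klk1b27, a kallikrein, was 622, 996 and 2462 in Spc and 65.6, 20.4 and 274 in RS (-3.49, SE 0.90, adjusted p = 0.0163). Klk1b21, Klk1b24 and Klk1b22 changed by -3.39, -3.13 and -3.11. These paralogs lie side by side on chromosome 7 and share sequence, so their counts are not fully separate. Without RS 1 the first 3 of these kallikreins lost their calls, at -3.12, -3.08 and -2.86. Hsd17b3, which makes testosterone, was 1260, 759 and 2313 in Spc and 111, 28.6 and 392 in RS (-3.02, SE 0.84, adjusted p = 0.0214), and it lost its call without Spc 1 or RS 1.

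Of 9 Leydig genes, 7 were called lower, where 3.79% of all genes were, with a median of -2.61 in the cKO and -4.98 in the control. Insl3, a Leydig hormone, was 13257, 9985 and 14628 in Spc and 929, 539 and 4713 in RS (-2.61, SE 0.74), and Cyp11a1, Cyp17a1 and Star, of steroid synthesis, changed by -2.81, -2.79 and -2.002. The count of 7 fell to 0 without Spc 1 or without RS 1, and to 3 without Spc 3. Star also lost its call with library size alone, at -1.85. Fdx1, the electron donor of that pathway, changed by -1.44 (SE 0.16).

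The remaining large decreases were in genes whose function is little known. 4921525O09Rik was at 7003, 9248 and 6856 in Spc and 1223, 486 and 669 in RS (-3.28, SE 0.34, adjusted p = 0.000388). 4930581F22Rik, Gm21269 and 4930525D18Rik changed by -3.38, -3.15 and -3.04, the zinc finger gene Zfp389 by -3.07, Dhdh, a dihydrodiol dehydrogenase, by -2.94 and D130017N08Rik by -2.89. All 7 were also called lower in control RS, at -3.19 to -4.10. Of the tested genes 91.5% were protein coding, and of those called lower 78.7%. The 3′ untranslated regions had a median length of 776 nt in genes called lower, 794 nt in genes called higher and 927 nt in all tested genes. The 2562 genes called higher in the control, tested in the cKO and not called higher there had a median of 506 nt. The 2330 called lower in the control, tested in the cKO and not called lower there had 1199 nt.

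Sertoli cell markers separated the genotypes more than the cell types of the cKO. The median of 13 Sertoli genes was 0.25 in the cKO and -3.04 in the control. In the cKO 1 of them was called higher, where 3.28% of all genes were. Single libraries moved the cKO median, to 0.013 without RS 3, 0.093 without Spc 1, 0.387 without Spc 2, 0.379 without Spc 3 and 0.515 without RS 2. Sox9 was 44.6, 83.6 and 79.1 in Spc and 94.1, 44.9 and 155 in RS, so the groups overlapped (0.50, adjusted p = 0.403), and it fell by 3.31 on the log2 scale in the control (interaction 3.72, adjusted p = 0.00145). Wt1 gave 0.41 and -3.30, and Clu -0.67 (adjusted p = 0.151, and -1.12 and past the test without RS 3) and -3.49. Trf, which codes for transferrin, was called higher at 1.56 (SE 0.38), but not without Spc 2 or without RS 3. Of 12 spermatogonial genes 2 were higher, none was lower or called, and the median was 0.13 against -0.36 in the control (0.01 without RS 1, 0.33 without RS 2 and 0.44 without Spc 3). Over all genes 18.9% were higher. Of 8 peritubular myoid genes 2 were higher, with Des called, at a median of 0.84 against 1.03. Of 7 endothelial genes 2 were higher and none was called, at a median of 0.77 against 1.39. The myoid and endothelial counts fell to 0 without Spc 1 or without RS 3, as did the myoid count without RS 1, and the myoid count was 5 without Spc 2.

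Calls in opposite directions were few. Of the genes called higher in cKO RS, 18 were called lower in control RS. Mrc1, a mannose receptor of macrophages, was at 548, 451 and 712 in Spc and 2172, 1645 and 2554 in RS (1.90, SE 0.22), with -2.21 in the control (interaction 4.00, adjusted p = 0.000192). Kctd12, named here after its values were seen, gave 1.90 and -2.41. Alas2 and, with all libraries, Trf were also among the 18. The 2 genes called lower in cKO RS and higher in control RS are named here after their values were seen. Klk1 was 43.4, 126 and 528 in Spc and 24.7, 17.4 and 31.3 in RS (-3.24, SE 0.86), with 1.501 in the control, and its call was lost without RS 1 or RS 2. Elmo3 was 55.8, 59.1 and 71.6 in Spc and 27.6, 17.4 and 17.0 in RS (-1.59, SE 0.33), with 2.18 in the control, and fell short of a call with library size alone and without Spc 3, RS 2 or RS 3.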

How the data were processed

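The authors made polyadenylated, stranded libraries (TruSeq, paired reads of 75 bases) and deposited a table of raw counts per gene and transposable element for each cell type, made with TEtranscripts on GRCm38 (mm10), and tables of estimated counts per transcript. Per the labels, the tools included STAR 2.7.1a, cutadapt 2.8, HISAT2 2.1.0 and featureCounts 2.0.1, with R 4.0.3. Column names show that the RS gene table was made from a second trimming of the reads and the Spc table from the first, so trimming and cell type cannot be told apart in it. The transcript tables came from the first trimming for both, and these values, rounded to whole numbers, were summed per gene as an alternative. Small RNA and chromatoid body files were not used here.

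The gene rows of both tables were joined by name and a gene was kept where 3 or more libraries held at least 10 counts. Kept genes were tested with edgeR 4.0.16 (R 4.3.3) after TMM scaling, by its two-sided quasi-likelihood test, and p-values were adjusted by Benjamini-Hochberg across every gene kept. The thresholds of log2 1.5 and adjusted p 0.05 and the values of the count filter are the study's. The filter was applied here to the libraries of each fit, where the study applied it to control and cKO libraries of a cell type together. The study's test was DESeq2, which was run as an alternative (1.42.0). SE is that of the log2 fold change. Whether a stage change depended on genotype was tested as an interaction term on all 12 libraries. The labels call the replicates biological, and p-values measure the spread between these libraries.

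The libraries and gene lists were chosen with earlier results of these data known. The named genes are the 12 highest and 12 lowest called genes with a mean of at least 200 normalized counts and no overlap between groups, members of the lists, Smg6, Fos, Lpxn and Fkbpl, and the 3 highest and 3 lowest called genes on the X and Y with at least 200 normalized counts. Kctd12, Klk1 and Elmo3 were named after their values were seen. Gene positions came from GENCODE and gene symbols matched for 23376 rows directly and 670 by an older symbol. Of the tested genes, 87 held the same counts as another gene, 17 of them called higher and 4 lower. Promoters came from RefSeq for GRCm38.p6. Replicates of a cell type differed by more than counting noise (chi-square divided by its degrees of freedom between 20.2 and 44.9 in the cKO). On simulated counts for 17521 genes, the cKO comparison recovered 81.9% of 199 genes changed by 2 on the log2 scale, and 6.32% of the genes that passed were unchanged. Summaries and figures were made with Python 3.11.15, pandas 2.3.3, numpy 2.4.6 and matplotlib 3.10.9.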

Additional observations from a re-analysis of the deposited data

Results flagged for a closer look

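These genes are listed because their RS against Spc change differed between cKO and control by 1.5 or more on the log2 scale and passed the edgeR test of the interaction (adjusted p up to 0.05). Values are the cKO change minus the control change. With library size alone the median of this difference over all genes moved from -0.13 to 0.58, so values are read against that shift, and 43.1% of all genes passed the test at any size.

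Among the studied germ cell and NMD genes, the difference was negative for haploid genes, at -1.64 for Spz1, -1.64 for Akap4, -1.74 for Odf1, -1.96 for Tssk6 and -1.52 for Pgk2. It was positive for Nxf3 at 3.60, Gadd45b at 2.10, Snhg12 at 2.04, Fos at 2.16 and Lpxn at 1.62. Stress-responsive genes gave 3.47 for Klf6, 2.39 for Atf3, 2.58 for Jun and 2.00 for Sesn2.

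Genes of blood and immune cells were more positive in the cKO, at 3.02 for Hbb-bs and Hbb-b1, 2.14 for Hba-a2 and Hba-a1, 4.87 for Alas2, 2.35 for H2-Aa, 2.24 for H2-Eb1, 2.14 for H2-Ab1, 2.29 for Cd74, 2.83 for Coro1a, 1.53 for Cybb and 4.00 for Mrc1. Adamts5 gave 2.02 and Kctd12 4.21. Sertoli cell genes gave 2.72 for Clu, 3.72 for Sox9, 3.62 for Wt1 and 3.76 for Trf. The differences of Klk1 and Elmo3 were -4.83 and -3.87.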

How the results depend on the processing

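The cKO counts of 580 higher and 672 lower stayed within 1.5 times under TMM with transposable elements (581 and 661), DESeq2 size factors (618 and 633), DESeq2 (575 and 615), no count filter (728 and 636), summed transcript counts (856 and 820), the fit of 12 libraries (668 and 672) and library size alone (740 and 482). Leaving out 1 library gave 478 to 1183 genes higher, the most without Spc 2, and 453 to 758 lower. In the control, library size alone gave 1132 higher and 4365 lower, DESeq2 gave 3056 and 2716, and leaving out a library gave 2369 to 3233 and 2332 to 2916. The interaction count of 7837 ranged from 6175 to 8161 without a cKO library and was 8306 with DESeq2. The cause of these shifts was not tested. Of 139 named genes, 111 kept their sign and their side of the adjusted p of 0.05 in each alternative run for them. This does not count calls lost or gained at the size of 1.5. The sign turned for Fos and Jun without RS 3 and for Lpxn with library size alone (0.10) and without Spc 1, Spc 3 or RS 1. Leaving out 1 library gave -0.216 to 0.712 for Fos, -0.194 to 0.39 for Jun and -0.064 to 0.029 for Lpxn. Of the 50 counts of list members called higher or lower, 33 stayed within 1.5 times of their value. Without 1 library the list medians ranged from 0.009 to 0.186 for haploid regulators, 0.161 to 0.398 for chaperones and metabolism, 0.113 to 0.298 for adhesion, 0.116 to 0.304 for ion channels and 0.542 to 1.256 for sperm chromatin.

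GEO's design text says that both testes of a mouse gave RS and Spc, while the study's methods describe isolations from several testes, and no label ties libraries of the same number to a mouse. Deviations from the group means correlated at -0.007, 0.565 and 0.31 for same-numbered cKO libraries, and Spc 1 correlated best with RS 3 (0.211), so the numbers were not taken as pairs. With the replicate block the cKO counts were 676 higher and 736 lower, the control counts 2892 and 2851, and the interaction count 7465. The block also took the higher counts from 3 to 8 for sperm chromatin genes, from 5 to 8 for kinases and for chaperones and metabolism, from 2 to 5 for myoid genes, from 7 to 15 for immediate early genes and from 3 to 5 for p53 genes, whose lower count went from 4 to 8. Under the replicate block Tnp1 (1.45), Tnp2 (1.49), Prm2 (1.59), Tssk6 (1.26) and Clu (-0.78) passed the adjusted p.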

Other observations

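Gene families outside the lists were picked by name after the values were seen, so they are described without a test. Of 83 genes of cytosolic ribosomal proteins, 66 were lower in cKO RS by adjusted p, 1 was higher and none was called, with a median log2 fold change of -0.47 in the cKO and 0.02 in the control. Subunits of the respiratory chain, 80 in number, were lower in 62, with medians of -0.65 and -0.27. Of 38 proteasome subunits 26 were lower, with medians of -0.35 and -0.33. Over all genes tested 26.5% were lower.

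The X-linked Ssxb genes, a testis family of close copies, were all higher, 7 of 7 by adjusted p with 5 called, and their median was 1.76 in the cKO and 1.91 in the control. Rhox homeobox genes of the X had 5 of 14 higher. Of 1410 genes named only as RIKEN clones, 32 were called higher and 87 lower in cKO RS, where 3.28% and 3.79% of all genes were. By adjusted p 314 were higher and 309 lower, and the median was 0.34. In control RS 546 were called higher and 155 lower, where 17.0% of all genes were called in each direction. Kinesins, 36 in number, had none called, with 13 higher and 8 lower by adjusted p.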
